A study of Capsicum annuum and Solanum lycopersicum with 125 samples.

Results

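The 120 tomato genes described here were those whose transcripts stayed lowest in tomato scions grown on pepper at every time point. They were chosen from the 34688 genes of the tomato count matrix by a score on CPM, a gene's count divided by the library's total count and multiplied by 1000000. For each gene and day, the mean of the heterografted tomato scion was subtracted, as log2(CPM + 2), from the lower of the means of ungrafted stems and self-grafted scions. The smallest of the 3 daily differences was the score, and the 120 genes with the highest scores were kept. The values of ungrafted stems, self-grafted scions and heterografted scions therefore chose the genes and are given below as a description without a test. The stock libraries were not used by the rule, so the tests concern the stocks alone. The self-grafted stocks were the other side of the self-grafts whose scions the rule used. Their median difference from those scions over the 120 genes was 0.07 at 14 DAG and 0.00 at 21 DAG. Their levels, the reference of the stock tests, are thus not independent of the rule.

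The tomato was Solanum lycopersicum var. M82 and the pepper was Capsicum annuum var. California Wonder. Seedlings were grafted at 14 days of age for tomato and 21 days for pepper and left to heal in darkness for 3 days. Stem pieces of 0.5 cm were taken 7, 14 or 21 days later (DAG, days after grafting), and tomato transcripts were counted by 3′ sequencing in 61 libraries. At each time point there were 5 groups of 3 to 5 libraries, which were ungrafted tomato stems of the same age, self-grafted (tomato on tomato) scions and stocks, heterografted tomato scions on pepper stocks, and heterografted tomato stocks under pepper scions. The heterografted scion and the heterografted stock thus came from different grafts, the reciprocal combinations, while the scion and stock of the self-graft belonged to the same combination.

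In a compatible graft, callus fills the wound between scion and stock, and vascular strands then form across it, so that water moves up the xylem and sugars and signals move down the phloem. In an incompatible graft the tissues may adhere while vascular continuity fails. The scion lies above the junction and the stock below it, so that the same species can be compared on either side of a pepper partner. The tables used here pair the identifiers of these genes (Solyc numbers, whose first digits give the chromosome) with no gene names or functions. The genes are therefore named by identifier only for those the comparisons turn on, and by their rank in the score otherwise, and no role is given to any of them.

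Outside the heterografted stocks of 14 and 21 DAG, libraries held between 952084 and 3136541 counts. The heterografted stocks of 14 DAG held only 900, 912 and 1509 counts and those of 21 DAG held 32731, 226553 and 267066 counts. These 6 libraries stood apart from the other 55, and results that rest on them are given with that depth. Intervals on shares are exact 95% Clopper-Pearson intervals and cover counting error only. In stem pieces, fewer cells of a type and less RNA per cell cannot be told apart.

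The scores of the 120 genes ran from 3.77 for Solyc10g086570 and 3.09 for Solyc03g121540 down to 0.86 at rank 120. Of the 120 genes, 80 had a score of at least 1 on the log2 scale and 14 a score of at least 2. The list ended within a continuous series of scores, since the last 2 genes kept had 0.858 and 0.857 and the next 2, just outside, had 0.854 and 0.851. The median difference from the lower control was 1.31 at 7 DAG, 1.85 at 14 DAG and 1.73 at 21 DAG on the log2(CPM + 2) scale, which is 2.49-fold, 3.60-fold and 3.32-fold. Over the 12176 genes tested, the same difference had a median of −0.33, −0.28 and −0.35. The day with the smallest difference was 7 DAG for 71 of the 120 genes, 21 DAG for 32 and 14 DAG for 17. In 43 of the 120, every heterografted scion library was below every ungrafted and every self-grafted scion library at all 3 time points. The same held for 67 of the 12176 genes tested (0.55%), and nothing is read from this count because the rule used these libraries.

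Summed over the 120 genes, the share of a library's counts was low in heterografted scions on every day. At 7 DAG the 5 heterografted scion libraries gave 0.423%, 0.521%, 0.463%, 0.588% and 0.441% of their counts to these genes. The ungrafted stems gave 1.58% to 2.44% (n = 4) and the self-grafted scions 1.195% to 1.95% (n = 4), with no overlap between these and the heterografted scions. At 14 DAG the heterografted scions gave 0.816%, 0.428%, 0.517% and 0.401%, against 2.63% to 2.99% (n = 5) in ungrafted stems and 2.12% to 2.59% (n = 4) in self-grafted scions. At 21 DAG they gave 0.472%, 0.452%, 0.597% and 1.23%, against 1.961% to 4.52% (n = 4) and 3.11% to 5.44% (n = 4). The heterografted scions overlapped with neither control on any day, and the widest gap was between self-grafted and heterografted scions at 21 DAG.

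**Figure D1:**
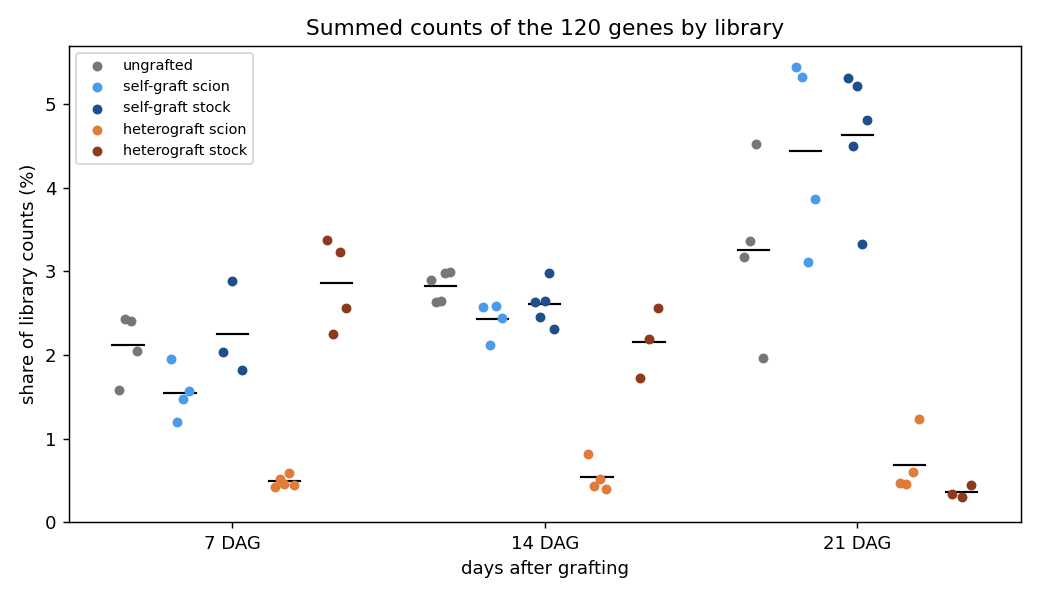
Share of each library's counts that fell in the 120 genes (y axis, %), by group and days after grafting (x axis). Points are libraries and black bars are group means. The heterografted scions lie between 0.401% and 1.23% on all days, and the heterografted stocks move from 2.25% to 3.37% at 7 DAG to 0.302% to 0.441% at 21 DAG. The 3 heterografted stock libraries of 14 DAG rest on 900 to 1509 counts each.

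The heterografted scion libraries were not uniform. Replicate 4 of 21 DAG gave the highest heterografted scion value for 105 of the 118 genes that had any count in that group, and its share of 1.23% compared with 0.452% to 0.597% in the other 3. Replicate 1 of 14 DAG was highest for 73 of 114 genes, and replicate 4 of 7 DAG for 50 of 116. Without replicate 4 of 21 DAG, the rule would keep 99 of the 120 genes, the lowest number for any library left out. The shares of these 3 libraries were still below those of every ungrafted and self-grafted scion library of the same day.

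Solyc10g086570, on chromosome 10, had the highest score. At 7 DAG its CPM in heterografted scions was 11.4, 5.52, 8.70, 27.2 and 6.97, against 124, 340.1, 345 and 181 in ungrafted stems and 346, 127, 210.1 and 291 in self-grafted scions. The highest heterografted scion was thus under the lowest control. At 14 DAG the heterografted scions had 82.1, 14.3, 28.8 and 10.9 CPM and the self-grafted scions 567, 413, 526 and 454. At 21 DAG the heterografted scions had 28.2, 11.6, 45.0 and 205 CPM, and the lowest control was an ungrafted library at 336. The mean of ungrafted stems was 20.7-fold, 19.4-fold and 14.2-fold that of heterografted scions at the 3 time points.

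Solyc03g121540, on chromosome 3, ranked second. At 7 DAG it had 20.7, 28.0, 23.6, 65.2 and 32.8 CPM in heterografted scions, against 496, 191, 516 and 499 in self-grafted scions. At 21 DAG the heterografted scions had 109, 69.2, 150 and 370.4 CPM and the self-grafted scions 13084, 10420, 4765 and 6153. Between these harvests the self-grafted scion mean went from 425 ± 157 (SD, n = 4) to 8605 ± 3835 (SD, n = 4), and the heterografted scion mean went from 34.1 ± 17.99 (SD, n = 5) to 174 ± 135 (SD, n = 4).

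Means of most of the genes were higher at the later harvest in each of the groups that follow. Between 7 and 21 DAG the median change in mean log2(CPM + 2) was 0.61 in ungrafted stems, 1.08 in self-grafted scions, 0.69 in self-grafted stocks and 0.56 in heterografted scions. The mean was higher at 21 than at 7 DAG for 100 of the 120 genes in self-grafted scions and for 82 in heterografted scions. Over all genes tested, the median change was −0.15 in self-grafted stocks and was not computed for the other groups. At 7 DAG the self-grafted stock mean was above the self-grafted scion mean for 108 of the 120 genes. The median difference in log2(CPM + 2) was 0.53 for the 120 genes and 0.09 over all genes tested. At 14 and 21 DAG it was 0.07 and 0.00 for the 120 genes, and −0.02 and −0.01 over all genes tested.

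**Figure D2:**
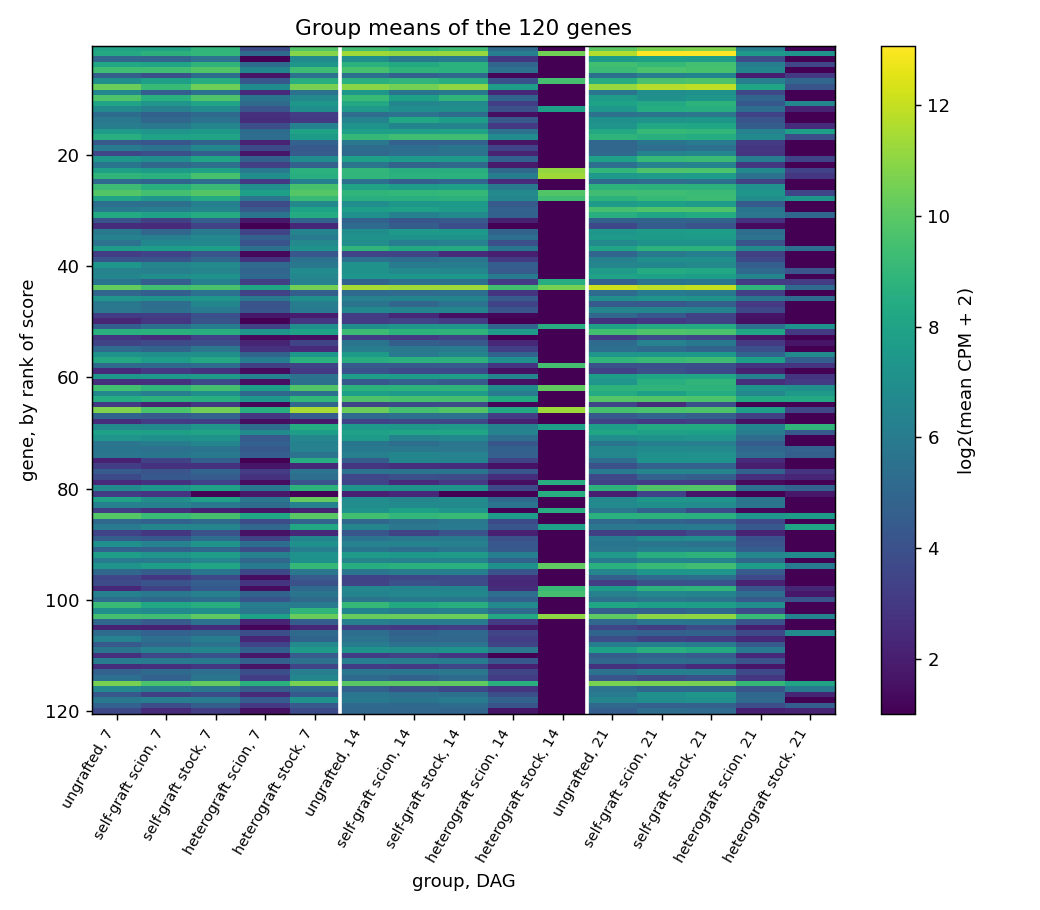
Mean level of each of the 120 genes, as log2(mean CPM + 2) in colour, in the 15 groups (x axis: group and days after grafting), with genes ordered by the rank of their score (y axis). The heterografted scion columns are darker than those of ungrafted stems and self-grafted scions at each time point, as the rule requires, and the heterografted stock column at 7 DAG is not. The rule requires nothing of the self-grafted stock columns. Most heterografted stock cells of 14 DAG and 65 of those of 21 DAG are at 0 in shallow libraries.

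Of the 120 genes, 115 passed a filter, which asked for a mean of at least 10 counts and left out genes at 0 in 75% or more of all libraries. The other 5 were not tested. The stocks were compared with edgeR's quasi-likelihood test, with Benjamini-Hochberg adjustment across all 12176 tested genes. Calls required an adjusted p below 0.05 together with a log2 fold change beyond 1.5 up or down.

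At 7 DAG the genes' summed share in heterografted stocks was 3.37%, 2.25%, 3.23% and 2.57%, against 2.04%, 2.88% and 1.83% in self-grafted stocks, and the groups overlapped. The mean share was 2.85 ± 0.53% (SD, n = 4) against 2.25 ± 0.56% (SD, n = 3).

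In heterografted against self-grafted stocks at 7 DAG, 8 of the 115 genes tested were lower (6.96%) and 5 were higher (4.35%). Of all 12176 genes tested, 7.99% were called lower and 2.48% higher. The median log2 fold change was 0.01 for the 115 genes and −0.07 over all genes, with 59 of the 115 above 0 and 56 below it. An unadjusted p under 0.05 was found for 40 of the 115, and for 31.1% of all genes tested. The fitted log2 fold change lay between −1 and 1 for 84 of the 115. Libraries of the 2 groups did not overlap for 19 of the 120 genes in the lower direction and for 19 in the higher direction. Over all genes tested, these shares were 18.9% and 16.0%. The share called lower was near the background, and the share called higher rests on 5 genes. The count of lower genes was 5 without replicate 3 of the self-grafted stocks, and the count of higher genes was then 8. Of all genes tested, 6.86% were lower and 2.06% higher in that fit. Without replicate 2 or replicate 5 of the same group, the higher count was 3, where 1.64% and 2.19% of all genes tested were higher.

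The genes that were lower on both sides of the pepper partner included Solyc07g009380 and Solyc10g009320. Solyc07g009380, on chromosome 7 and rank 10, had 193, 28.0, 99.3 and 83.2 CPM in heterografted stocks and 1111, 1070 and 369 in self-grafted stocks at 7 DAG. Every heterografted library was under every self-grafted one, and the log2 fold change was −3.17 ± 0.54 (SE, edgeR adjusted p = 0.000355). The gene kept its call in all 14 alternatives. In scions of the same day it had 27.4, 52.7, 36.0, 92.4 and 32.3 CPM in heterografts and 656, 293, 236 and 420 in self-grafts.

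Solyc10g009320, on chromosome 10 and rank 55, had 10, 0, 0 and 14 counts in the heterografted stocks and 152, 133 and 48 counts in the self-grafted stocks at 7 DAG. Its log2 fold change was −3.97 ± 1.27 (SE, edgeR adjusted p = 0.0339). The call was lost without replicate 2 or 3 of the self-grafted stocks or replicate 2 or 3 of the heterografted stocks, with adjusted p from 0.0675 to 0.108. The other 6 genes called lower ranked 4, 14, 19, 58, 60 and 101, with log2 fold changes from −2.97 to −1.52.

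The genes that were low in the heterografted scion and higher in the heterografted stock included Solyc10g086580, on chromosome 10 and rank 82. It had 1077, 864, 1244 and 1487 CPM in heterografted stocks and 234, 254 and 206 in self-grafted stocks at 7 DAG. The groups did not overlap, and the log2 fold change was 2.27 ± 0.33 (SE, edgeR adjusted p = 6.97e-05), a call that was kept in all 14 alternatives. In heterografted scions of the same day the gene had 47.6, 60.01, 49.7, 58.8 and 37.3 CPM, and in self-grafted scions 181, 120.5, 59.9 and 138.

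Solyc10g086580 stands next to Solyc10g086570 in the matrix, and the member of rank 53 is the row before that. The 3 genes are neighbours by identifier, and whether the counting could divide reads between neighbouring gene models is not given in the sources used here. Solyc10g086570 itself had 1065, 559, 1067 and 831 CPM in heterografted stocks and 381, 759 and 337 in self-grafted stocks, which overlapped. Its log2 fold change was 0.76 ± 0.46 (SE, edgeR adjusted p = 0.293), so the gene with the highest score was not called in the stock.

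Solyc09g092110, on chromosome 9 and rank 75, had no count in any of the 5 heterografted scions at 7 DAG, where 3 counts of the pooled total correspond to 0.282 CPM. The controls were low too, with 0, 9.09, 0 and 0 CPM in ungrafted stems and 14.2, 0, 0 and 19.4 in self-grafted scions. In the heterografted stocks the gene had 437, 169, 627 and 242 CPM, against 14.0, 44.7 and 9.91 in the self-grafted stocks. The log2 fold change was 3.89 ± 1.07 (SE, edgeR adjusted p = 0.0193). The call was lost with DESeq2 (adjusted p = 0.0612) and without replicate 2 or 5 of the self-grafted or replicate 3 of the heterografted stocks, with adjusted p from 0.0535 to 0.0898.

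Solyc03g121540 was also higher in heterografted stocks at 7 DAG, with 3614, 937, 1982 and 1053 CPM against 271.1, 975 and 271.3. The groups overlapped through replicate 3 of the self-grafted stocks, and the log2 fold change was 1.80 ± 0.56 (SE, edgeR adjusted p = 0.0277). The call was lost with only the 2 groups in the fit (edgeR adjusted p = 0.112) and without replicate 2 or 5 of the self-grafted or replicate 1 of the heterografted stocks, with adjusted p from 0.0935 to 0.135. The other 2 genes called higher ranked 87 and 102, with log2 fold changes of 1.67 and 1.89. The gene of rank 87 is a neighbour of that of rank 12.

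Across the list, 12 genes had every heterografted scion library below every self-grafted scion library and every heterografted stock library above every self-grafted stock library at 7 DAG. In 14 genes the heterografted libraries were below the self-grafted ones in scion and in stock. The same held for 0.517% and 2.59% of all genes tested, and nothing is read from these counts, since the scion libraries chose the genes. The first 12 had ranks from 62 to 114. Among the 58 genes tested with ranks 1 to 60, 7 were called lower in the stock and 1 higher, with a median log2 fold change of −0.08. Among the 57 tested with ranks 61 to 120, 1 was lower and 4 were higher, with a median of 0.37. Of all genes tested, 7.99% were called lower and 2.48% higher in the stock. Ranks come from the score, which used the scion values, and the calls are few, so nothing is read from these ranges. The difference between them was not tested.

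**Figure D3:**
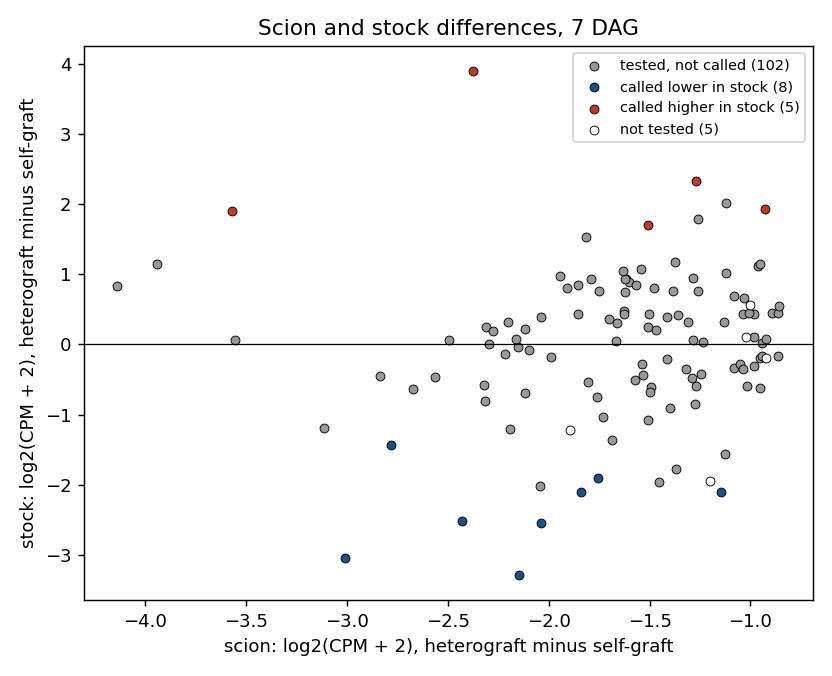
Difference between heterograft and self-graft at 7 DAG in log2(mean CPM + 2) for each of the 120 genes, in scions (x axis, below 0 by the rule) and in stocks (y axis). Colours give the edgeR calls in the stock. The stock values lie on both sides of 0, with 8 genes called lower and 5 called higher.

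**Figure D4:**
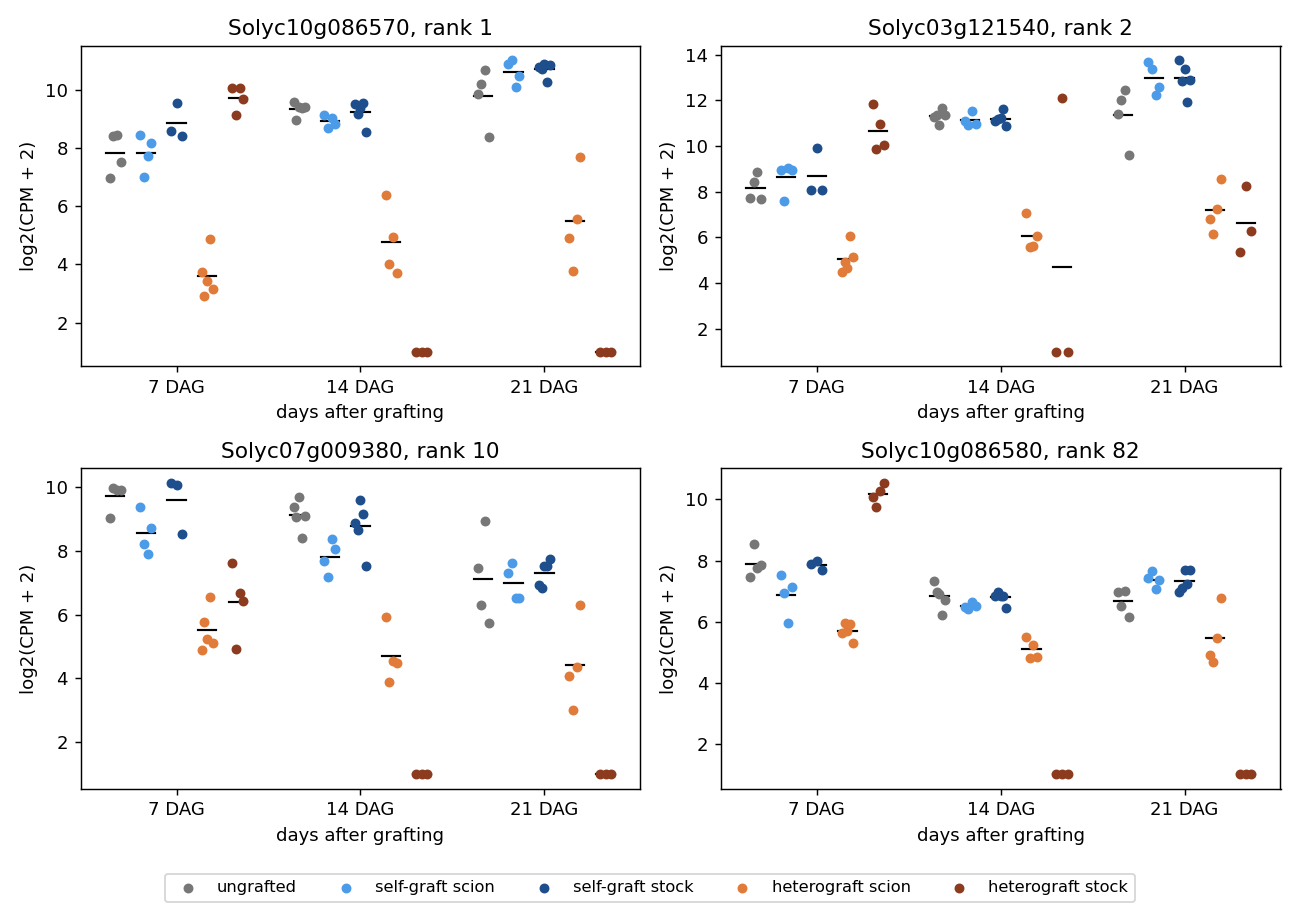
Level of 4 of the genes in each library, as log2(CPM + 2) (y axis), by group and days after grafting (x axis). Points are libraries and black bars are means of the plotted values. At 7 DAG the heterografted stocks are below the self-grafted stocks for Solyc07g009380 and above them for Solyc10g086580, while the heterografted scions are low for all 4 genes.

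At 14 DAG most genes could not be read singly in the heterografted stocks. The 3 libraries together held 3321 counts, of which 69 fell in the 120 genes, and 98 of the 120 had no count in any of them. The median member, at its self-grafted stock level, would have given 0.245 counts at this depth, and 3 counts correspond to 903 CPM. Self-grafted stock means were above that level for 5 of the 120 genes, and 2 of these 5 had no count. The genes' share of counts was 1.72% (interval 1.13% to 2.51%), 2.19% (1.34% to 3.37%) and 2.56% (1.63% to 3.81%), against 2.30% to 2.98% (n = 5) in self-grafted stocks. The intervals overlapped the range of the self-grafted stocks, so a small difference in share could not be resolved at this depth. All 3 intervals lay above the 0.401% to 0.816% of the heterografted scions of the same day. The rule chose the genes for low values in those scions, so nothing is read from this. The fit called 34 of the 115 genes lower and 0 higher, against 12.6% lower and 0.0164% higher of all genes tested. Of these 34 genes, 27 had no count in any heterografted stock library. An unadjusted p under 0.05 was found for 59 of the 115 (25.9% of all genes tested), none of the 59 in the higher direction, and DESeq2 also called 0 higher. With column totals in place of TMM scaling, edgeR called 0 genes lower, with an unadjusted p under 0.05 for 7. Of all genes tested, 0.0246% were then lower and 0.238% higher, and 3.27% had such a p. With DESeq2's size factors 10 genes were lower, and 2.95% of all genes tested. Leaving out a single heterografted stock library gave 15 to 19 lower genes, and 5.63% to 6.34% of all genes tested.

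At 21 DAG the genes were low in the heterografted stocks as well. Their share of counts was 0.333% (interval 0.310% to 0.358%), 0.302% (0.246% to 0.368%) and 0.441% (0.416% to 0.467%), against 5.31%, 4.499%, 5.21%, 3.33% and 4.81% in self-grafted stocks. Every heterografted stock was under every self-grafted stock, and the means were 0.359 ± 0.073% (SD, n = 3) and 4.63 ± 0.80% (SD, n = 5). Of the 115 genes tested, 105 were called lower (91.3%) and 0 higher. An unadjusted p under 0.05 was found for 108 (68.5% of all genes tested), none of the 108 in the higher direction, and DESeq2 also called 0 higher. Of all genes tested, 55.4% were called lower and 4.39% higher. Every heterografted library was under every self-grafted one for 101 of the 120 genes and above for 1. The shares over all genes tested were 46.7% and 6.46%. All genes tested were not matched to the list in level, and the median self-grafted stock mean of the 120 genes was 130 CPM. These stocks differed from the self-grafted scions used by the rule by a median of 0.00 over the 120 genes. This reference is thus not independent of the rule.

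The pooled depth of 526350 counts in these 3 libraries set the resolution, since 3 counts correspond to 5.70 CPM. Self-grafted stock means were above that level for 118 of the 120 genes, and 64 of these had no count in the heterografted stocks. With column-total scaling and a floor of 3 pooled counts for each gene, the median log2 difference of the list was −3.33. The fitted median was −7.53 for the 115 genes and −3.67 over all genes, and the fitted values of genes at 0 depend on the prior count and give no bound. With column totals in place of TMM, the median over all genes was −2.71, and 90 of the 115 genes were called lower and 1 higher. Of all genes tested, 41.0% were then called lower and 11.4% higher. The count of lower genes was 100 to 107 when any library was left out, where 49.3% to 56.0% of all genes tested were lower. The low total counts of these libraries moved with this result, and their part in it was not tested. The paper also reports much RNA degradation in the stocks of incompatible grafts, judged by low alignment rates, most of all at the last time point. The part of this degradation in the lower calls was not tested.

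Solyc03g121540 had 9, 10 and 20 counts in the heterografted stocks, which is 39.7, 305.5 and 74.9 CPM, against 13694, 7379, 10506, 3906 and 7678 CPM in self-grafted stocks. The groups did not overlap, and the log2 fold change was −7.75 ± 0.88 (SE, edgeR adjusted p = 4.53e-07). With column totals in place of TMM the log2 fold change was −6.42 ± 0.93 (SE, adjusted p = 1.15e-05), so the size depends on the scaling of these shallow libraries. At 7 DAG the same gene had been called higher in the heterografted stock, with groups that overlapped and a call lost in 4 alternatives. Solyc10g086570 had no count in the 3 heterografted stocks of 21 DAG, while the self-grafted stocks had 1786, 1695, 1915, 1252 and 1848 CPM. Solyc10g086580, higher at 7 DAG, also had no count there, against 121.9 to 206 CPM in self-grafted stocks.

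In self-grafted stocks, whose libraries the rule did not use, a part of the genes rose with time. The self-grafted scions used by the rule were near these stocks in level at 14 and 21 DAG. The stock levels are thus not independent of the rule. At 14 against 7 DAG, 7 of the 115 genes were higher and 3 lower, where 1.55% and 1.84% of all genes tested were called higher and lower. Without replicate 3 of 7 DAG, 14 were higher, where 2.25% of all genes tested were. At 21 against 7 DAG, 32 of the 115 were higher (27.8%) and 7 lower (6.09%), where 7.12% of all genes tested were higher and 12.3% lower. The median log2 fold change was 0.85 for the 115 genes and −0.04 over all genes, which other scalings moved to −0.10 and −0.16. Libraries of the days did not overlap for 50 of the 120 genes in the higher and 17 in the lower direction, where these shares over all genes tested were 21.0% and 30.3%. The higher count at 21 DAG was 23 to 42 when any library was left out, where 6.05% to 8.19% of all genes tested were higher. Plants of 21 DAG were also older and harvested apart, so age and time after grafting cannot be told apart within the self-grafted stocks. Between 7 and 21 DAG the median change in mean log2(CPM + 2) was 0.69 in these stocks. It was 0.61 in ungrafted stems of the same ages, which the rule used. The part of age was not tested.

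The genes that rose most were Solyc07g044970 and Solyc04g007000. Solyc07g044970, on chromosome 7 and rank 61, had 2.001, 19.0 and 10.5 CPM in self-grafted stocks at 7 DAG and 440.3, 509, 635, 327 and 486 at 21 DAG. The log2 fold change was 5.58 ± 0.52 (SE, edgeR adjusted p = 4.15e-06). In heterografted scions of 21 DAG this gene had 0, 2.21, 3.97 and 11.2 CPM, against 369, 524, 216 and 387 in self-grafted scions. Solyc04g007000, on chromosome 4 and rank 98, went from 6.50, 32.4 and 15.5 CPM to 549, 433, 578, 323 and 529 CPM, with a log2 fold change of 4.81 ± 0.48 (SE, edgeR adjusted p = 6.50e-06). In both genes the days did not overlap.

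Solyc04g074640 and Solyc07g009380 fell most. Solyc04g074640, on chromosome 4 and rank 107, had 68.5, 77.1 and 49.6 CPM at 7 DAG and 0, 4.67, 8.22, 7.07 and 12.6 CPM at 21 DAG, a log2 fold change of −3.17 ± 0.46 (SE, edgeR adjusted p = 0.000105). Solyc07g009380 had 119.3, 112, 182, 183 and 210 CPM at 21 DAG, all under its values at 7 DAG, with a log2 fold change of −2.27 ± 0.41 (SE, edgeR adjusted p = 0.000568). The list was thus not uniform in time, although the mean of each gene was lower in heterografted scions than in both controls at each of the 3 days. Single libraries could overlap. At 21 DAG Solyc04g074640 had 0, 0, 3.09 and 9.78 CPM in heterografted scions, against 6.27, 9.63, 7.05 and 8.58 in self-grafted scions.

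By identifier, the 120 genes lay on all 12 chromosomes, with 17 on each of chromosomes 1 and 3 and 1 on chromosome 11. Apart from the 3 neighbours on chromosome 10, pairs in adjacent rows of the matrix were found on chromosome 1 (ranks 12 and 87) and chromosome 6 (ranks 21 and 68), and 2 genes on chromosome 10 (ranks 28 and 116) lay 2 rows apart.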

How the data were processed

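Total RNA from graft junctions was sequenced as 3′ Seq libraries. After trimming, the authors mapped reads to the ITAG4 tomato models (STAR), obtained gene counts with StringTie, and dropped outlying samples of low depth. They deposited raw, unnormalized counts per gene. Libraries were grouped by their labels, which name separate biological replicates.

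CPM was computed from column totals. Counts were tested with edgeR 4.0.16 (R 4.3.3) on TMM-scaled counts, with the 5 tomato groups of a day in one fit, and the self-grafted stocks of the 3 days in another. Standard errors were derived from the fold change and the F statistic. The test was tested on simulated data. Alternatives were DESeq2 1.42.0, its size factors, column totals (chosen after seeing the data), no filter, filterByExpr, only the groups compared, the replicate number as a block, no fold threshold, and each library left out.

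The genes and lists were chosen with earlier results of these data known. Named genes were those of highest score and, in each stock comparison at 7 DAG and over time, the called genes with the largest fold changes, limited to 2 in each direction. Lists of functions and cell type markers could not be applied, since the reference table used here holds none of the 120 identifiers. Pepper counts were not used.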

Additional observations from a re-analysis of the deposited data

Results flagged for a closer look

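In 12 of the 120 genes, every heterografted scion was below every self-grafted scion and every heterografted stock above every self-grafted stock at 7 DAG. The same held for 0.517% of all genes tested, and stock libraries alone did not overlap in that direction for 16.0% of them. In the 12 genes the scion and stock differences thus had opposite signs, and the difference between them was not tested, since the scion values chose the genes.

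Single libraries that stood far from the others of their group were looked for in the summed share and in the 9 genes named by identifier, in groups of 4 or 5 libraries. Of 120 such sets of values, 9 had a library that stood apart, where chance gives about 1 in 20.

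In heterografted scions of 7 DAG, replicate 4 had the highest CPM of Solyc10g086570 (27.2, next 11.4) and of Solyc03g121540 (65.2, next 32.8). In heterografted scions of 14 DAG, replicate 1 had 18.5 CPM of Solyc04g074640 (next 4.05). In heterografted scions of 21 DAG, replicate 4 had 13.5 CPM of Solyc09g092110 and the others 0.

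In self-grafted scions of 7 DAG, replicate 2 had 191 CPM of Solyc03g121540 (next 496) and replicate 3 was at 0 for Solyc04g074640 (next 50.8). In self-grafted stocks of 14 DAG, replicate 3 had 139 CPM of Solyc04g007000 (next 79.2). In ungrafted stems of 7 DAG, replicate 1 had 519 CPM of Solyc07g009380 (next 949) and replicate 2 had 9.09 CPM of Solyc09g092110, where the others had 0.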

How the results depend on the processing

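With pseudocounts of 1 and 5 CPM, the rule kept 113 and 96 of the 120 genes, with TMM-scaled CPM 112, and with any library left out at least 99. With libraries left out, the counts in heterografted against self-grafted stocks were 5 to 11 lower and 3 to 8 higher at 7 DAG. They were 15 to 34 lower at 14 DAG and 100 to 107 lower at 21 DAG. Of all genes tested, 6.49% to 8.34% were then lower and 1.64% to 2.50% higher at 7 DAG. At 14 DAG 5.63% to 12.5% of them were lower, and at 21 DAG 49.3% to 56.0%. Over time in self-grafted stocks the counts were 5 to 14 higher and 2 to 3 lower at 14 DAG. They were 23 to 42 higher and 6 to 7 lower at 21 DAG. Of all genes tested, 0.830% to 2.25% were then higher and 1.04% to 1.79% lower at 14 DAG. At 21 DAG 6.05% to 8.19% of them were higher and 10.5% to 13.5% lower. Without a threshold on the fold change, 10 genes were higher and 10 lower in stocks at 7 DAG (6.61% and 13.5% of all genes tested). At 14 against 7 DAG 17 were then higher and 13 lower (9.48% and 7.94%), and at 21 against 7 DAG 57 and 14 (24.4% and 26.2%). Lower calls at 14 DAG numbered 10 with DESeq2's size factors and 0 with column totals, where 2.95% and 0.0246% of all genes tested were lower. Column totals also gave 1 higher gene at 21 DAG, where 11.4% of all genes tested were higher. The cause was not tested.

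Heterografted and self-grafted stocks with the same replicate number did not deviate together (correlations from −0.04 to 0.05). For the comparison of these stocks the number was taken as a name only. Scions and stocks of the self-grafts were not compared in this way, so whether they share plants by number was not tested. With the number as a replicate block, 6 genes were lower and 5 higher at 7 DAG, 32 lower at 14 DAG and 103 lower at 21 DAG. Of all genes tested, 7.44% were then lower and 2.12% higher at 7 DAG. At 14 and 21 DAG 12.2% and 54.0% of them were lower. At 21 against 7 DAG, 29 genes were higher and 7 lower, where 6.52% and 11.3% of all genes tested were. With this block, the calls of Solyc10g009320 and Solyc09g092110 at 7 DAG had edgeR adjusted p of 0.0573 and 0.0543.

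Depth limits the heterografted stocks of 14 and 21 DAG. The part of RNA degradation, which the paper reports for stocks of incompatible grafts, was not tested. At 14 DAG, 3 pooled counts were above the self-grafted stock mean for all but 5 of the 120 genes. With 3 to 5 libraries a group, genes of few counts with changes near the threshold can be missed.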
